A study of Mus musculus with 6 samples.

Results

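The genes described here are 10 genes of hepatic gluconeogenesis: the enzymes and carrier Pck1, G6pc, Fbp1, Pcx, Slc37a4 and Got1, and the regulators Gcgr, Creb3l3, Sik1 and Crtc2. They were chosen by name, with 1 probe set per gene, from 30702 genes named on the array, and each of the 10 was measured by a single probe set. The samples were livers of male mice aged 8 weeks, 1 array per mouse. The HFD-inulin group held 3 offspring of mothers treated with inulin, a fermentable plant fibre, and the HFD group held 3 offspring of mothers on a high-fat diet. The title of the first group names the high-fat diet as well, and the labels give neither the strain, the offspring's own diet, nor whether the mice were fed or fasted when the liver was taken. They also do not say whether mice of 1 group came from separate litters, so p-values reflect the spread of these samples alone, which may be technical in part. Values are log2 signals as deposited, and a difference is the HFD-inulin mean minus the HFD mean on that scale.

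Gluconeogenesis makes glucose from lactate, amino acids and glycerol, and in mammals the liver is its main site between meals. Pyruvate is carboxylated to oxaloacetate in mitochondria, oxaloacetate is turned into phosphoenolpyruvate in the cytosol, and glucose 6-phosphate is hydrolysed in the endoplasmic reticulum. Glucagon raises the output of the pathway through cyclic AMP, the factor CREB and its coactivator CRTC2, and insulin lowers it, largely by keeping FOXO1 out of the nucleus.

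HFD-inulin livers 1 and 2 stood apart from liver 3. In the first principal component, which held 53.1% of the variance over all probe sets, HFD-inulin array 3 lay with HFD arrays 2 and 3, and HFD-inulin arrays 1 and 2 lay with HFD array 1. The same split appeared in chromosome Y probe sets that share all their values with another probe set, whose mean signal lay at 1.91, 1.60 and 3.15 for HFD-inulin livers 1 to 3, against 1.34, 3.24 and 2.99 for HFD livers 1 to 3. Its cause was not tested. HFD-inulin 1 and 2 with HFD 1 are called the low-Y arrays below, HFD-inulin 3 with HFD 2 and 3 the high-Y arrays, after that signal, and differences are given within each. Hepatocyte identity was clear in all samples: the 7 measured hepatocyte markers, among them Alb and Apob, ranged from 9.18 to 11.6, whereas the 5 measured kidney tubule markers stayed between 0.69 and 1.90 and the 5 measured pancreas markers between 1.20 and 3.01. The median probe set averaged 1.22. Pck1 is also expressed in kidney and fat. Of the adipocyte markers, Adipoq, Lep and Plin1 lay between 0.76 and 1.75 in every array, and Car3, which liver expresses as well, between 6.07 and 10.5.

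None of the 10 genes passed the test. limma gave them adjusted p-values between 0.902 and 0.931, and over all 65956 probe sets 0% passed. Without adjustment, 3 of the 10 lay under 0.05 and lower in HFD-inulin livers (Pck1, Got1 and Fbp1), where 2.64% of all probe sets did, and 1 lay under 0.05 and higher (Sik1), where 2.52% did. That count of 4 was 0 without HFD array 2, 2 without HFD array 3, 6 without HFD-inulin array 3, and 0 by ordinary least squares. Of the 10, 6 had a lower mean in HFD-inulin livers, as did 56.5% of probe sets. In 4 genes (Pck1, Fbp1, Got1 and Crtc2) every HFD-inulin liver lay below every HFD liver, as in 6.02% of probe sets, and in Sik1 every HFD-inulin liver lay above, as in 4.32%. The median difference over the 10 genes was -0.14, and over all probe sets it was -0.02. The direction was not shared: 5 of the 6 enzyme and carrier genes had lower means in HFD-inulin livers and 3 of the 4 regulator genes had higher ones.

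**Figure D1:**
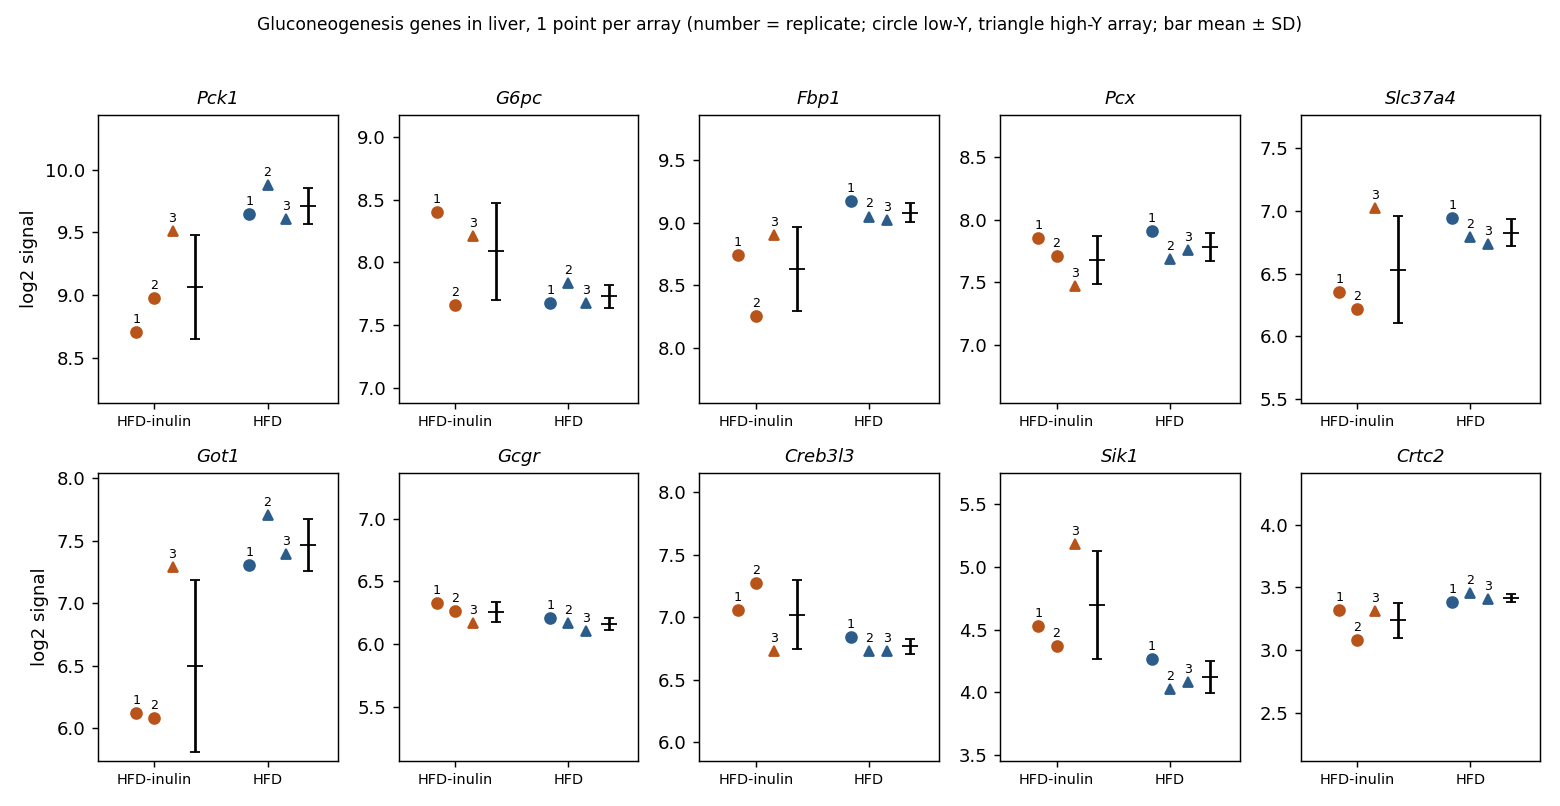
log2 signal of each of the 10 genes (vertical axis, the same span of 2.3 log2 units in every panel) in the HFD-inulin and HFD livers, 1 numbered point per array, with the mean ± SD (n = 3) beside each group. Circles are low-Y and triangles high-Y arrays. Pck1, Fbp1, Got1 and Crtc2 lie lower in all HFD-inulin livers and Sik1 higher, while the other genes overlap between the groups.

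Pck1 encodes the cytosolic phosphoenolpyruvate carboxykinase, whose abundance is set largely by transcription. Its signal was 8.70, 8.98 and 9.51 in HFD-inulin livers 1 to 3, against 9.65, 9.88 and 9.61 in HFD livers 1 to 3. The groups did not overlap, but HFD-inulin liver 3 lay only just under the lowest HFD liver, and livers 1 and 2 carried most of the difference. The means were 9.06 ± 0.41 in HFD-inulin livers and 9.71 ± 0.15 in HFD livers (SD, n = 3 each), a difference of -0.65 (95% interval -1.14 to -0.16) or a 0.638-fold ratio. limma's unadjusted p was 0.0168 and its adjusted p 0.902. The difference was -0.81 in the low-Y and -0.23 in the high-Y arrays.

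G6pc encodes the catalytic subunit of glucose 6-phosphatase, the last step of the pathway, and is usually regulated by the same hormones as Pck1. Its mean difference had the opposite sign to that of Pck1. Its signal was 8.40, 7.66 and 8.21 in HFD-inulin livers 1 to 3, against 7.68, 7.84 and 7.68 in HFD livers 1 to 3. HFD-inulin livers 1 and 3 were above every HFD liver and liver 2 was below them all, so the groups overlapped. The difference was 0.36 (95% interval -0.09 to 0.81, limma adjusted p = 0.902), with 0.35 in the low-Y and 0.45 in the high-Y arrays. Leaving out HFD-inulin liver 2 gave 0.58, leaving out liver 1 gave 0.20, and quantile normalization gave 0.24. HFD-inulin liver 1 thus had the lowest Pck1 and the highest G6pc signal of the 6 samples. Whether the 2 genes differ in their response was not tested.

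The promoters of these 2 genes are shown because CREB and FOXO1 act on both. The 250 bases before each gene's start were taken from RefSeq (GRCm38.p6, plus strand for both), at chr2:173152823-173153072 for Pck1 and chr11:101367466-101367715 for G6pc. Capitals mark TGACG, the half-site of the cAMP response element, and TNTTTTG, a pattern used here for the insulin response sequence. N stands for any base, so this pattern is a loose one. Each was searched on both strands.
Pck1: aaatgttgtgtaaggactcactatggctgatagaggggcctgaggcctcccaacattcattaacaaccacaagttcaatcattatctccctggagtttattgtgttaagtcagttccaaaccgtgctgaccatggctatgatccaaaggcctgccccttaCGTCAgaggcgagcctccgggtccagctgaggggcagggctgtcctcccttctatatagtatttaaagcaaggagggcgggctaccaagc
G6pc: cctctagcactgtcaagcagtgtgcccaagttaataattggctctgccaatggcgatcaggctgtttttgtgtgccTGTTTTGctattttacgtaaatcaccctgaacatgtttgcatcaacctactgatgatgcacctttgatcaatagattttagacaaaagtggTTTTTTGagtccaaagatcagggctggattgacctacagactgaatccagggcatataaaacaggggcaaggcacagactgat
The Pck1 window holds 1 half-site, on the minus strand and beginning 90 bases before the start, and no TNTTTTG. The G6pc window holds 2 TNTTTTG matches, beginning 174 and 83 bases before the start, and no TGACG. Of 32851 RefSeq windows of this length, 17.8% hold TGACG and 16.9% hold TNTTTTG, so both are common. Promoters were listed for 8 of the 10 genes, all but Sik1 and Crtc2. Slc37a4 has 3 windows and Pcx and Creb3l3 have 2 each, numbered by position, whereas the shares above are per window. TGACG was present in the window of Pck1, in windows 1 and 2 of Slc37a4 and in window 1 of Creb3l3. Windows 1 and 2 of Slc37a4 overlap, and the match in window 1 lies in window 2 as well. TNTTTTG was present in the window of G6pc and in window 1 of Creb3l3. The full element TGACGTCA, found in 1.55% of all windows, and the FOXO-type letters TGTTTAC, found in 3.17%, were in none of the windows of these 8 genes. A match of letters is a description and does not show binding. A missing match does not show that a gene lacks such an element, since sites further upstream or with other letters were not searched. The part of these letters in the differences between groups was not tested.

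Upstream of Pck1 stand enzymes that make oxaloacetate and move its carbon out of mitochondria. Got1, the cytosolic aspartate aminotransferase of the malate-aspartate shuttle, had the largest mean difference of the 10 genes. Its signal was 6.12, 6.08 and 7.29 in HFD-inulin livers 1 to 3, against 7.31, 7.70 and 7.39 in HFD livers 1 to 3. HFD-inulin livers 1 and 2 were over 1 log2 unit below every HFD liver, and liver 3 lay 0.18 below the HFD mean and just under the lowest HFD liver. The means were 6.50 ± 0.68 in HFD-inulin livers and 7.47 ± 0.21 in HFD livers (SD, n = 3 each), a difference of -0.97 (95% interval -1.75 to -0.19) or a 0.511-fold ratio. limma's unadjusted p was 0.0223 and its adjusted p 0.902. The difference was -1.20 in the low-Y and -0.26 in the high-Y arrays.

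Pcx encodes pyruvate carboxylase, which commits pyruvate to the pathway inside mitochondria. It measured 7.85, 7.71 and 7.47 in HFD-inulin livers 1 to 3, against 7.91, 7.68 and 7.76 in HFD livers 1 to 3. The groups overlapped, and the lowest value was in HFD-inulin liver 3, not in livers 1 and 2 as for Got1. The difference was -0.11 (95% interval -0.38 to 0.17, limma adjusted p = 0.931), with -0.13 in the low-Y and -0.25 in the high-Y arrays. It was -0.004 without HFD-inulin liver 3, -0.20 without liver 1, -0.04 without HFD liver 1 and -0.24 after quantile normalization.

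Downstream of Pck1, Fbp1 encodes fructose 1,6-bisphosphatase. It measured 8.74, 8.26 and 8.90 in HFD-inulin livers 1 to 3, against 9.17, 9.05 and 9.02 in HFD livers 1 to 3. All HFD-inulin livers lay lower, and liver 2 by the most. The means were 8.63 ± 0.34 in HFD-inulin livers and 9.08 ± 0.08 in HFD livers (SD, n = 3 each), a difference of -0.45 (95% interval -0.84 to -0.05) or a 0.733-fold ratio. limma's unadjusted p was 0.0313 and its adjusted p 0.902. The difference was -0.67 in the low-Y and -0.13 in the high-Y arrays, and -0.26 without HFD-inulin liver 2.

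Slc37a4 encodes the transporter that carries glucose 6-phosphate into the endoplasmic reticulum, where G6pc acts. It measured 6.36, 6.22 and 7.02 in HFD-inulin livers 1 to 3, against 6.95, 6.79 and 6.74 in HFD livers 1 to 3. HFD-inulin livers 1 and 2 were the lowest of the 6 and liver 3 the highest. The difference was -0.29 (95% interval -0.79 to 0.20, limma adjusted p = 0.908) over all arrays and -0.66 in the low-Y arrays, and in the high-Y arrays the sign turned, to 0.26. Leaving out HFD-inulin liver 3 gave -0.54 and leaving out liver 2 gave -0.14.

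**Figure D2:**
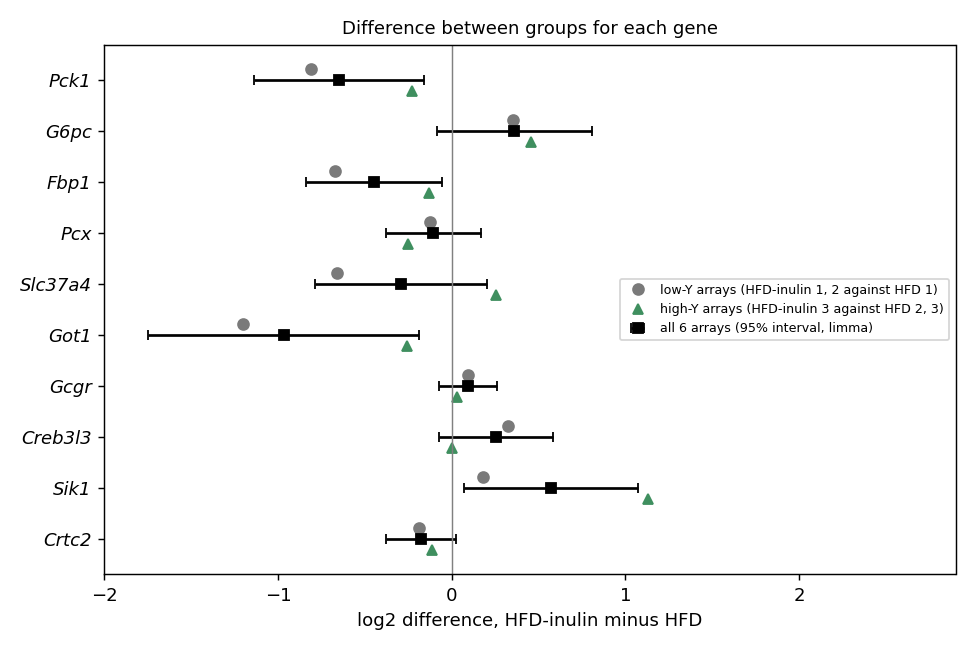
Difference in log2 signal, HFD-inulin minus HFD (horizontal axis), for each gene: over all 6 arrays with limma's 95% interval (black squares), in the low-Y arrays (grey circles) and in the high-Y arrays (green triangles). Pck1, Fbp1 and Got1 lie left of 0 in both parts and further left in the low-Y arrays, Slc37a4 changes side, and Sik1 lies furthest right in the high-Y arrays.

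Of the 4 regulators, Sik1 had the largest difference in mean. Sik1, a salt-inducible kinase whose own gene is induced by cAMP and CREB and which phosphorylates CRTC2 and so keeps it in the cytoplasm, measured 4.53, 4.37 and 5.18 in HFD-inulin livers 1 to 3, against 4.27, 4.02 and 4.08 in HFD livers 1 to 3. Every HFD-inulin liver was higher, and here liver 3, not 1 or 2, was furthest from the HFD mean. The means were 4.69 ± 0.43 in HFD-inulin livers and 4.12 ± 0.13 in HFD livers (SD, n = 3 each), a difference of 0.57 (95% interval 0.07 to 1.07) or a 1.49-fold ratio. limma's unadjusted p was 0.0310 and its adjusted p 0.902. The difference was 0.18 in the low-Y and 1.13 in the high-Y arrays, and 0.33 without HFD-inulin liver 3.

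Crtc2, the coactivator that SIK1 restrains, had the lowest mean signal of the 10, though still above that of 81.7% of probe sets. It measured 3.32, 3.08 and 3.31 in HFD-inulin livers 1 to 3, against 3.39, 3.45 and 3.41 in HFD livers 1 to 3. The groups did not overlap, by a margin of less than 0.1 between HFD-inulin livers 1 and 3 and the lowest HFD liver. The difference was -0.18 (95% interval -0.38 to 0.02, limma adjusted p = 0.902), with -0.19 in the low-Y and -0.11 in the high-Y arrays, and -0.10 without HFD-inulin liver 2. CRTC2 is controlled mainly by phosphorylation, which an RNA level does not show.

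Gcgr, the glucagon receptor at the head of the pathway's hormonal control, measured 6.33, 6.27 and 6.17 in HFD-inulin livers 1 to 3, against 6.21, 6.17 and 6.11 in HFD livers 1 to 3. The groups overlapped, and the difference of 0.09 had a 95% interval of -0.07 to 0.26 (limma adjusted p = 0.909). It was 0.09 in the low-Y and 0.03 in the high-Y arrays, 0.06 without HFD-inulin liver 1 and 0.02 after quantile normalization. Creb3l3 encodes CREBH, a liver-enriched factor held in the endoplasmic reticulum membrane and released by cleavage under stress, fasting and inflammatory signals. It measured 7.05, 7.27 and 6.73 in HFD-inulin livers 1 to 3, against 6.84, 6.73 and 6.73 in HFD livers 1 to 3. HFD-inulin livers 1 and 2 were the highest of the 6 and liver 3 was at the level of the HFD livers. The difference was 0.25 (95% interval -0.08 to 0.58, limma adjusted p = 0.902). It was 0.33 in the low-Y arrays and about 0 in the high-Y arrays, 0.13 without HFD-inulin liver 2, 0.40 without liver 3 and 0.13 after quantile normalization.

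Of 7 listed targets of CREBH, 6 were measured, 4 with higher and 2 with lower means in HFD-inulin livers, and none passed the test. Their median difference was 0.17, with 0.48 in the low-Y and -0.43 in the high-Y arrays. The list mean minus the HFD mean was 0.56, 1.10 and -0.47 in HFD-inulin livers 1 to 3. In HFD livers 1 to 3 it was 0.08, 0.04 and -0.11. The list mean was highest in HFD-inulin livers 1 and 2, which also had the highest Creb3l3 signal, but single targets differed. Apcs, which encodes serum amyloid P and is also among the acute phase genes below, made up much of the list mean there. It measured 7.70, 9.33 and 5.24 in HFD-inulin livers 1 to 3, against 5.68, 5.79 and 5.40 in HFD livers 1 to 3. The next smallest p belonged to the fat-storage gene Cidec, with a difference of 0.88 (limma adjusted p = 0.909). The apolipoprotein gene Apoa4 (-0.30) and the iron hormone gene Hamp (0.27) followed (limma adjusted p = 0.922 and 0.934). In HFD-inulin liver 1 only Apcs and Cidec lay above every HFD liver, and the other measured targets lay within or below the HFD range. In liver 2 all measured targets but Apoa4 and Hamp lay above every HFD liver. A link between Creb3l3 and these genes was not tested.

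Among 10 listed genes that respond to cAMP, as Sik1 does, 9 were measured and 0 passed the test, with 5 lower and 4 higher means in HFD-inulin and a median difference of -0.03. Nr4a1, an orphan nuclear receptor gene induced by glucagon, measured 3.08, 3.21 and 4.71 in HFD-inulin livers 1 to 3, against 3.40, 3.37 and 3.42 in HFD livers 1 to 3. HFD-inulin liver 3 therefore held the highest signal of both Sik1 and Nr4a1, while livers 1 and 2 were the lowest for Nr4a1. Nr4a1 was not among the genes of this list with the smallest p (limma adjusted p = 0.949). Of the other measured genes of the list, only Pde4b was also highest in HFD-inulin liver 3, at 1.60. The rest were highest in other livers, so the list as a whole did not share this pattern. Ppargc1a, the coactivator PGC-1 alpha that raises gluconeogenic transcription, measured 2.92, 2.63 and 3.67 in HFD-inulin livers 1 to 3, against 3.64, 3.55 and 3.90 in HFD livers 1 to 3, a difference of -0.62 (limma adjusted p = 0.902). The other genes of this list with the smallest p were Nr4a2 (-0.13), Per1 (-0.36) and Dusp1 (-0.67), the last highest in HFD liver 2 at 5.72.

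**Figure D3:**
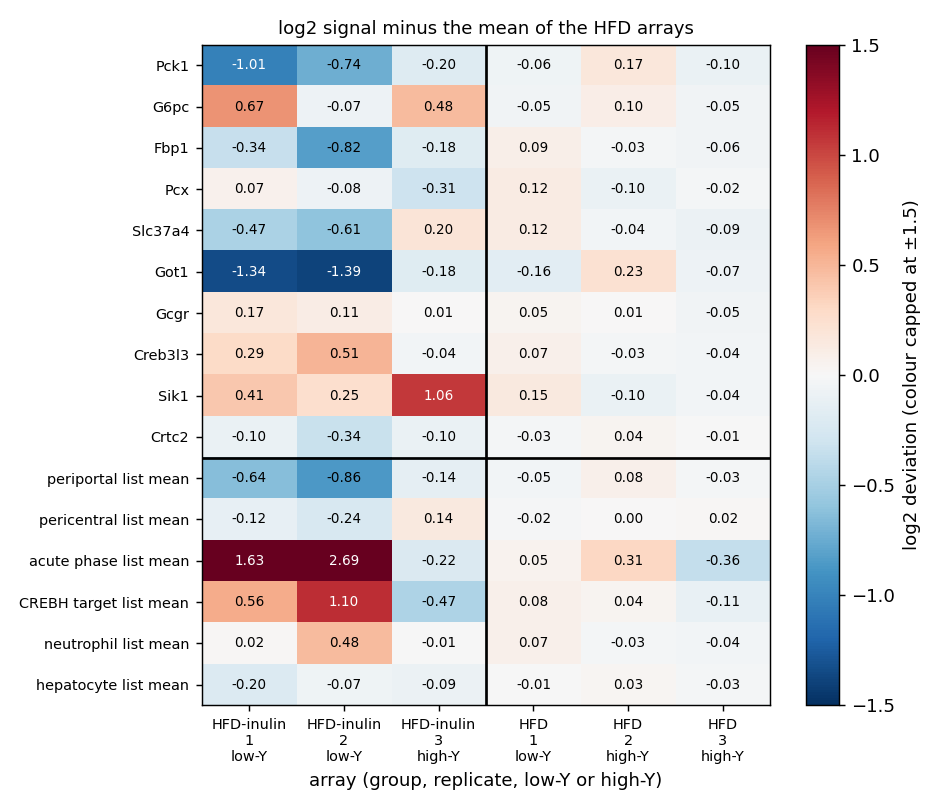
log2 signal of each gene (rows above the line) and mean of listed genes (rows below it) in each array, as the deviation from the mean of the HFD arrays, which the numbers and the colour give. HFD-inulin arrays 1 and 2 hold the lowest Pck1, Fbp1, Got1 and Slc37a4 values together with the highest acute phase means (1.63 and 2.69). G6pc is highest in HFD-inulin array 1 and lowest in array 2. HFD-inulin array 3 holds the lowest Pcx value and the highest Sik1 value (1.06).

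The livers with the lowest Pck1, Fbp1, Got1 and Slc37a4 were also those with the highest acute phase signal. The other enzyme genes did not follow: G6pc was highest in HFD-inulin liver 1 and lowest in liver 2, and Pcx was lowest in liver 3. Relative to the HFD mean, 10 acute phase genes averaged 1.63 and 2.69 in HFD-inulin livers 1 and 2, -0.22 in liver 3, and 0.05, 0.31 and -0.36 in HFD livers 1 to 3. All 10 had higher means in HFD-inulin, none passed the test, and the groups overlapped in each. Saa2 measured 10.4, 11.3 and 6.25 in HFD-inulin livers, against 6.60, 6.74 and 5.69 in HFD livers, and the next smallest p belonged to Hp (difference 0.50), Saa1 (2.59) and Lcn2 (2.17). The mean level of 7 neutrophil markers was 1.34, 1.80 and 1.31 in HFD-inulin livers 1 to 3 and 1.28 to 1.40 in HFD livers. S100a8, S100a9 and Ltf made up the excess in HFD-inulin liver 2, at 2.33, 2.34 and 2.23, while Mpo and Elane were at 1.75 and 1.32 there. The mean level of 6 Kupffer cell markers was 4.78 to 4.95 in HFD-inulin and 4.88 to 5.11 in HFD livers. The part of these signals in the differences above was not tested, and in whole liver, fewer cells of a type and less RNA per cell cannot be told apart.

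Pck1, like much of gluconeogenesis, is more abundant in hepatocytes near the portal vein. Of 10 listed periportal genes, Pck1 included, 7 were measured, 6 with lower means in HFD-inulin livers, and in 5 of them, all lower, the groups did not overlap. Over all probe sets 56.5% had lower means and 6.02% had separate groups that were lower. The mean deviation of the 7 from the HFD mean was -0.64, -0.86 and -0.14 in HFD-inulin livers 1 to 3, against -0.05, 0.08 and -0.03 in HFD livers 1 to 3. The genes with the smallest p beside Pck1 were Cps1, which starts the urea cycle (-0.68), Hal, which degrades histidine (-1.08), and Uroc1, which acts after it (-0.83), each with a limma adjusted p of 0.902. Of 8 measured genes of the opposite, pericentral zone, 5 had lower and 3 higher means, in 0 the groups were apart, and the median difference was -0.04. Those with the smallest p were Axin2 (0.14), Slc1a2 (-0.15), Cyp1a2 (-0.35) and Gulo (-0.16). None of these genes passed the test, and no test compared the zones.

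The other genes of the route showed no shared direction. Of 26 listed, 20 were measured, 12 with lower and 8 with higher means in HFD-inulin livers, with a median difference of -0.03, and 0 passed the adjusted test. The groups overlapped in all 20. Fbp2, the muscle form of fructose 1,6-bisphosphatase, had the smallest p, with 2.44, 2.34 and 1.55 in HFD-inulin livers 1 to 3, against 1.43, 1.46 and 1.63 in HFD livers 1 to 3 (limma adjusted p = 0.902). HFD-inulin livers 1 and 2 were the highest for Fbp2, the same livers in which the liver form Fbp1 was lowest. Slc2a2, the glucose transporter GLUT2 through which hepatocytes exchange glucose with blood, measured 8.07, 6.64 and 8.70 in HFD-inulin livers 1 to 3, against 8.72, 8.57 and 8.76 in HFD livers 1 to 3. HFD-inulin liver 2 was the lowest for Slc2a2 and liver 1 the next lowest, while liver 3 lay among the HFD livers. The difference was -0.88 with a standard error of 0.48 (limma adjusted p = 0.902). Gpt2, a mitochondrial alanine aminotransferase (-0.25), and Mdh2, mitochondrial malate dehydrogenase (0.30), completed the 4 with the smallest p. The mitochondrial carboxykinase gene Pck2 measured 2.49 ± 0.08 in HFD-inulin and 2.49 ± 0.06 in HFD, and G6pc3, the broadly expressed glucose 6-phosphatase, 3.63 ± 0.18 in HFD-inulin livers and 3.64 ± 0.03 in HFD livers (SD, n = 3 each).

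**Figure D4:**
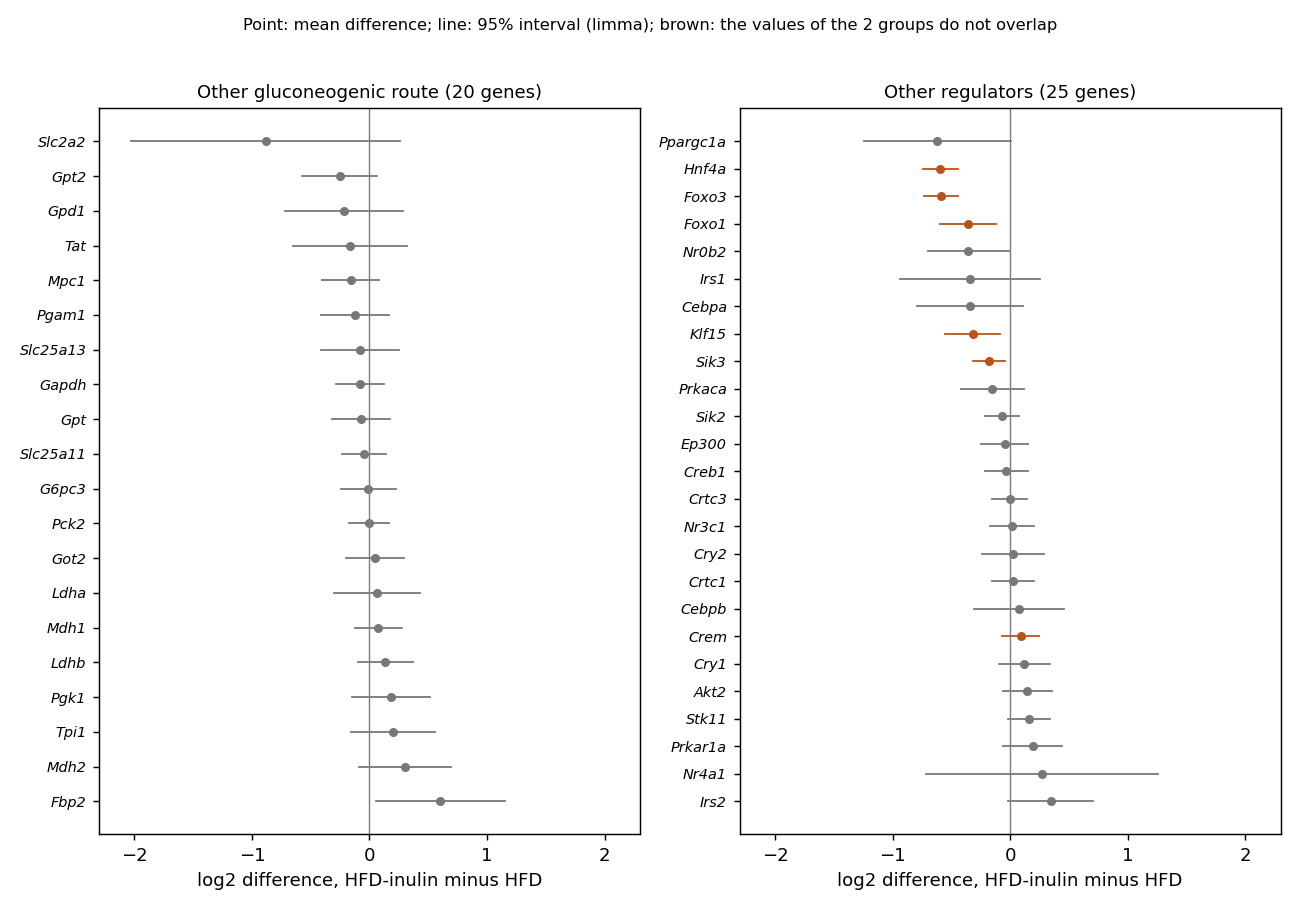
Difference in log2 signal, HFD-inulin minus HFD (horizontal axis), with limma's 95% interval, for 20 other genes of the gluconeogenic route (left) and 25 other regulators (right), ordered by size. Brown marks genes whose groups do not overlap: 0 on the left, and 6 on the right, of which Hnf4a, Foxo3, Foxo1, Klf15 and Sik3 are lower in HFD-inulin livers and Crem is higher. The Pgk1 probe set is numbered on chromosome 12 and the gene lies on X.

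Of 27 listed other regulators, 25 were measured, 14 with lower and 11 with higher means, and 56.5% of all probe sets had lower means. At an unadjusted p under 0.05 there were 6, all lower, where 2.64% of all probe sets were, and 0 passed the adjusted threshold. The groups did not overlap in 6, of which 5 were lower and 1 higher, where 6.02% and 4.32% of all probe sets were. The median difference was -0.03. Foxo3 and Hnf4a had the smallest p of this list, with differences of -0.59 and -0.60 (limma adjusted p = 0.390 for each). Foxo1, the factor through which insulin restrains Pck1 and G6pc, measured 4.54, 4.63 and 4.51 in HFD-inulin livers 1 to 3, against 4.72 to 5.04 in the HFD livers, a difference of -0.36 (SE 0.10, limma adjusted p = 0.902). Klf15, a factor that promotes amino acid use for gluconeogenesis, measured 5.92, 5.77 and 6.04 in HFD-inulin livers 1 to 3, against 6.19, 6.36 and 6.14 in HFD livers 1 to 3, a difference of -0.32 (SE 0.10). In contrast to Pck1 and Got1, HFD-inulin liver 3 was as low as livers 1 and 2 for Foxo1, Foxo3 and Hnf4a, whose differences in the high-Y arrays were -0.35, -0.58 and -0.68. The glucocorticoid receptor gene Nr3c1 (0.02) and the factor gene Cebpb (0.08) differed little between groups relative to their standard errors of 0.08 and 0.16. Irs2, an insulin receptor substrate whose gene FOXO factors induce, had a higher mean in HFD-inulin (0.35, SE 0.15, limma adjusted p = 0.902).

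Genes with the most similar profile over the 6 arrays were ranked by Pearson's r among 13569 other protein-coding genes, as a description with no test, since 6 arrays in 2 groups allow many close matches by shared group or array differences alone. For Pck1 these were Znrf3 (r = 0.991), Pip5k1a (0.990) and Baiap2 (0.989), and 65 genes exceeded 0.95. For G6pc they were Fbxo9 (0.981), Ttbk1 (0.974) and Pcna (0.972), with 7 above 0.95. For Sik1 they were Kdm8 (0.990), Polr2a (0.989) and Lyrm9 (0.979), with 9 above 0.95. For Creb3l3 they were Pbdc1 (0.999), Mettl16 (0.998) and Cope (0.998), and 487 genes exceeded 0.95, so its profile, highest in HFD-inulin livers 1 and 2, was a common one on these arrays. None of the genes named here is among the other 9 members or in the fixed lists.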

How the data were processed

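Liver RNA of 6 mice was hybridised to 1 Affymetrix array each. The authors deposited log2 signals for 65956 probe sets, processed in Affymetrix Expression Console 1.0 as the submitters' processing notes name it. How probes were summarised and background-corrected, and on which build, is not given in the sources used here. A log2 scale was inferred from the range of the values. No scanner files or detection calls were used, so no scan batch was tested; the number of arrays limits the precision. Probe sets were named through GEO's platform annotation, updated with RefSeq (GRCm38.p6): 31258 carried 1 gene, 1492 several and 33206 none.

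Groups were compared in R 4.3.3 with limma 3.58.1 (lmFit, eBayes, two-sided, no filter or covariate), and p-values were adjusted by Benjamini-Hochberg across the whole table at a threshold of 0.05. A gene was represented by its probe set with the highest mean. The fit was checked on simulated data with noise drawn independently for each probe set and array. Those data held no array split, so the check does not show how the fit behaves with one. Lists were described by counts and medians. Named were all 10 genes, up to 4 genes of each list described with the smallest p, 9 regulators and enzymes whatever they showed (Insr was not analysed here), and the 3 closest profiles of 4 genes. Some genes were named outside this rule, among them Nr4a1, Cry1, Cry2 and cell type markers. Members and lists were chosen with earlier results of these data known. Alternatives were another variance prior, least squares, a filter on dim probe sets, 2 normalizations, array weights, blocks by replicate number and by the array split, each part of the split, and each array left out.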

Additional observations from a re-analysis of the deposited data

How the results depend on the processing

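Each of the 10 genes was recomputed under 16 alternatives. The sign of the difference was the same in all of them for 8 genes, and turned for Slc37a4 (0.26) and Creb3l3 (-0.00055) within the high-Y arrays. No member passed the adjusted threshold under any alternative. The smallest adjusted p of a member was 0.0742, for Got1 without HFD-inulin array 3. The number of members with a lower mean was 6 under every alternative. The number at an unadjusted p under 0.05 was 4, with 0 by ordinary least squares and 0 to 6 when 1 array was left out. Without HFD array 2 it was 0 and without HFD array 3 it was 2, and each of these fits also has fewer samples. Over all probe sets limma called 0, with 3399 at an unadjusted p under 0.05 (2100 without HFD array 2, 2218 without HFD array 3, 6525 without HFD-inulin array 3). With dim probe sets left out it was 1873 of 32978 tested, or 5.68%, against 5.15% of all 65956. A trended and robust prior called 4 and an adjusted threshold of 0.1 also gave 4. The cause of these moves was not tested.

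The replicate number as a block gave 0 calls over all probe sets and 4 members at an unadjusted p under 0.05, and changed no call. Deviations from the group mean correlated at 0.26, -0.28 and 0.40 for replicates 1, 2 and 3. With unequal numbers they correlated at 0.40 for HFD-inulin 2 with HFD 1 and 0.42 for HFD-inulin 3 with HFD 2. The correlations were positive within the low-Y and the high-Y arrays and negative across them. They follow the array split and so cannot show whether the numbers are pairs. The numbers were not read as pairs, since the labels state no pairing. Alternatives that choose another probe set per gene gave no value, since each member has 1. The deposited values carry no detection calls, so no limit of detection is known.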

Other observations

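Clock genes, which set the daily rhythm of hepatic glucose output, were lower in mean in HFD-inulin livers for 9 of 11 listed genes, where 56.5% of all probe sets were. The median difference was -0.09, with -0.44 in the low-Y and 0.07 in the high-Y arrays, and none passed the test. Nr1d1, the repressor REV-ERB alpha, measured 4.71, 4.41 and 4.80 in HFD-inulin livers 1 to 3, against 5.64, 5.66 and 5.80 in HFD livers 1 to 3 (difference -1.06, limma adjusted p = 0.390). Ciart, another clock repressor, had a difference of -1.09 (SE 0.31, limma adjusted p = 0.902), with -1.58 in the low-Y and -0.28 in the high-Y arrays. Per1 (-0.36) and Tef (-0.27) had overlapping groups. The clock genes Cry1 and Cry2 were counted with the other regulators, not in this list. Their means were higher in HFD-inulin livers (0.12 and 0.02), with overlapping groups. The labels give no hour of collection, and its part in the values of gluconeogenic genes was not tested.

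Of 5 sinusoidal endothelial markers, 4 had lower means in HFD-inulin livers, as did 56.5% of all probe sets. Stab2, a scavenger receptor, was at 4.88 ± 0.07 in HFD-inulin livers and 5.16 ± 0.09 in HFD livers (SD, n = 3 each), a difference of -0.28. Clec4g went the other way, with a higher mean in HFD-inulin livers (0.23) and overlapping groups. Of 5 stellate cell markers, 3 had lower means, and the median difference was -0.04. Of 6 Kupffer cell markers, 4 had lower and 2 higher means, the latter being Clec4f (0.03) and Vsig4 (0.02). At a limma unadjusted p under 0.05 there were 2, both lower, Adgre1 (-0.32) and Timd4 (-0.32), where 2.64% of all probe sets were. The groups did not overlap in 1 of the 6, Adgre1, where 6.02% of all probe sets were apart and lower. None passed the adjusted test.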
